A study of Homo sapiens with 8 samples.

Results

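The interleukin-1 and interleukin-36 family was followed here through 10 genes: the ligands IL1A, IL1B, IL36B, IL18 and IL33, the antagonists IL1RN and IL36RN, and the receptor chains IL1R1, IL1RAP and IL1RL1. They were taken by symbol, as 10 of the 18787 gene symbols of the deposited table, and all 10 passed the filter on low values. The genes were chosen with values of these same comparisons in view, so their levels and differences are given as a description and carry no test.

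The cells were T98 and U87, established human glioblastoma lines, taken 72 h after they received control siRNA or siRNA to LKB1, a kinase encoded by the gene STK11. Each of the 4 groups (T98 control, T98 LKB1, U87 control and U87 LKB1) had 2 libraries, in cells grown in DMEM with serum and transfected with Lipofectamine RNAiMAX, controls included. The sources used here do not give the number of siRNAs or their sequences. Nothing says that the duplicates were separate cultures, so p-values speak only of the spread among these libraries, and that spread may be technical.

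Interleukin-1 alpha and beta signal through IL1R1 paired with the shared accessory chain IL1RAP, which recruits MYD88 and IRAK kinases and leads to NF-kB. The accessory chain also serves the interleukin-33 receptor IL1RL1 (ST2) and the interleukin-36 receptor IL1RL2, while IL1RN and IL36RN encode proteins that occupy a receptor without activating it. In glioblastoma, interleukin-1 is known as an inducer of interleukin-6, interleukin-8 and other inflammatory products of the tumour cells.

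The sequences around the starts of 4 members are shown first. IL1A and IL1B are the agonists of the shared receptor, IL1RN was higher with LKB1 siRNA in U87, and IL1RAP was lower in both lines. Each window runs from 250 bases before to 50 bases after the annotated start (RefSeq, GRCh38.p14), 5′ to 3′ on the gene's strand, and is the entry nearest to the GRCh38 start of the GENCODE transcript that carries the deposited RefSeq identifier. The GENCODE interval equals the deposited hg19 one in length for IL1RN (16124 bases) but not for IL1A (10676 against 11480), IL1B (7153 against 7020) or IL1RAP (137454 against 143147), so the start of the measured transcript may lie elsewhere for these. Capitals mark matches to AP-1 (TGANTCA), C/EBP (TTNNGCAA), TATAAA, CRE (TGACGTCA) or NF-kB (by name), searched on both strands.
IL1A, chr2:112784444-112784743, minus strand: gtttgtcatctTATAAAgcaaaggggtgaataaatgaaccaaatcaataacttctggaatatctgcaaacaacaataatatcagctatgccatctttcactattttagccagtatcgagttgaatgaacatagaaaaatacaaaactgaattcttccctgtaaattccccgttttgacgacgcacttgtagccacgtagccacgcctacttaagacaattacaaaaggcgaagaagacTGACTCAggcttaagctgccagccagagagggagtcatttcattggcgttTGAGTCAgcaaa
IL1B, chr2:112836730-112837029, minus strand: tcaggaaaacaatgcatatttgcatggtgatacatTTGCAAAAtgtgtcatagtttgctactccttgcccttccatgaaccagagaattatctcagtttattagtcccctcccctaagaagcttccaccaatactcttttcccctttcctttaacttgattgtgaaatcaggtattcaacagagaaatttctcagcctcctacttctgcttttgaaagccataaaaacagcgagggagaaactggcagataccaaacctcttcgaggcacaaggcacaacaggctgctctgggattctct
IL1RN, chr2:113117721-113118020, plus strand: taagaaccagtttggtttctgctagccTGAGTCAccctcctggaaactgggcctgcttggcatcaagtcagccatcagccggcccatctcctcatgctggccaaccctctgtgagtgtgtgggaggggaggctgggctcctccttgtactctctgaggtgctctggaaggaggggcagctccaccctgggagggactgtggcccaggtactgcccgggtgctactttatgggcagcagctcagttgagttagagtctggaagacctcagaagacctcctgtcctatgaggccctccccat
IL1RAP, chr3:190513835-190514134, plus strand: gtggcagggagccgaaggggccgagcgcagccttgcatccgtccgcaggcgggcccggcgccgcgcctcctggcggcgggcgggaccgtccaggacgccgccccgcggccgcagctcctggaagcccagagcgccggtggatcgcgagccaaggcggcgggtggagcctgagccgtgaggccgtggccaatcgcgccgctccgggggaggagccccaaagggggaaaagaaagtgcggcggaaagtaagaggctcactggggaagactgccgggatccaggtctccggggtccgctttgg
With the start as position 0, IL1A held AP-1 letters at -12 to -6 and at 38 to 44, and TATAAA at -239 to -234. IL1B held C/EBP letters at -215 to -208, and IL1RN held AP-1 letters at -223 to -217. The IL1RAP window held none of the letters searched. Of 35116 promoter windows of this length, 7.71% held AP-1, 10.5% C/EBP, 11.5% TATAAA, 1.85% CRE and 11.3% NF-kB letters. Of the 10 members, 8 had a window, and IL36B and IL18 had none. Beyond the 4 printed, IL36RN held NF-kB letters at 0 to 9 and IL1RL1 held TATAAA at -29 to -24. A match is only a match of letters.

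The 3′ untranslated regions of the interleukin-1 mRNAs are known for AU-rich elements, which mark an mRNA for decay. Short stretches of 29 bases from GENCODE transcripts (GRCh38) are shown for the members that carry them most densely, with TATTTAT in capitals, and for IL1RN with GCAGTAC in capitals.
IL1B, chr2:112829995-112830023, minus strand: gcttcccTATTTATTTATTTATttgtttg
IL1A, chr2:112774430-112774458, minus strand: attatTATTTATatatgTATTTATaaata
IL1RN, chr2:113133648-113133676, plus strand: tacagctgcctGCAGTACtttacctccta
Counting overlapping matches, TATTTAT occurred 4 times in the IL1B region, 3 times in that of IL1A, 2 times in that of IL1RAP, 1 time in that of IL36RN and in none of the other 6. It occurred in 29.6% of 13798 tested genes with such a region. GCAGTAC and GAAGGAA were searched because an earlier analysis of these data had singled them out. Among the members only IL1RN held GCAGTAC, against 4.15% of the same genes. GAAGGAA occurred in IL1RN, IL33 and IL1R1 and in 17.6% of the same genes, and IL1RAP held neither. The part of either in any result was not tested.

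In the data as a whole, STK11 was lower in all LKB1 siRNA libraries than in the control libraries of the same line. It read 1999 and 2041 with control siRNA and 339.9 and 588 with LKB1 siRNA in T98, and 2445 and 2041 against 361 and 385 in U87, in units of the deposited normalised signal. With limma-trend, STK11 fell in U87 by a log2 difference of -2.58 (SE 0.28, adjusted p = 0.0466), and the difference of -2.17 in T98 (SE 0.28, adjusted p = 0.0824) missed the threshold. Each group had 1 library on sequencing lane 2, and the other on lane 4 (T98) or lane 5 (U87). Libraries of the same line pair by lane, so a fit with a lane term for each line is given beside the fit without one. In it STK11 passed in each line, with adjusted p = 0.00254 for T98 and adjusted p = 0.00195 for U87. Among markers of the labelled glioblastoma cells, VIM and CD44 read at least 34020 in every library, whereas S100B, SOX2 and AQP4 stayed under 10 in all libraries and GFAP under 10 in T98. Recovered depth was 25234334 to 38031734 reads per library.

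The 2 lines differed in which family members they expressed. U87 control cells held IL1A, IL1B, IL1RN, IL36B, IL36RN and IL33 mRNA, all of which were near the detection limit or low in T98, while T98 held more IL18. The receptor chain IL1RAP differed between the control lines by -0.27 on the log2 scale (SE 0.21). IL1R1 differed by -0.43 (SE 0.61) without the lane term, and by 0.07 when the lane 2 T98 control library was left out. With the lane term it differed by -1.53 (SE 0.22), but that fit compares the lines at lane 2 only. On the other lanes the IL1R1 controls went the other way, at 3547 in T98 (lane 4) and 2689 in U87 (lane 5). In bulk RNA, fewer cells with a transcript and less of it per cell cannot be told apart.

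**Figure D1:**
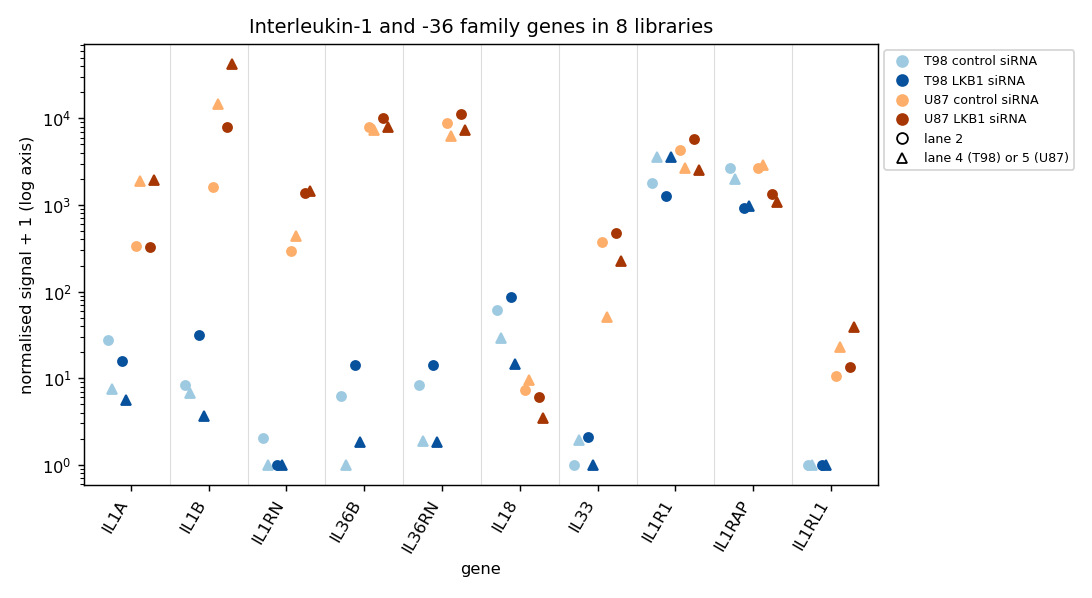
Normalised signal plus 1 (log axis) of the 10 genes in each of the 8 libraries, with colour for line and siRNA, circles for lane 2 and triangles for lane 4 (T98) or 5 (U87). IL36B and IL36RN sit between 6297 and 11204 in U87 and at or under 13.4 in T98, and IL1RAP is lower in the LKB1 siRNA libraries of each line.

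IL1B encodes interleukin-1 beta, a secreted cytokine made as a precursor, and had the highest level per kilobase of any member in a single library, 28171. In U87 it read 1607 (lane 2) and 14767 (lane 5) with control siRNA, and 8047 and 42397 with LKB1 siRNA. In T98 it read 7.45 (lane 2) and 5.68 (lane 4) with control siRNA, and 30.3 and 2.63 with LKB1 siRNA. Every U87 library was above every T98 library, but within U87 the siRNA groups overlapped, because the lane 5 control lay above the lane 2 LKB1 library. The lane 5 value was 9.19 times the lane 2 value among U87 controls and 5.27 times with LKB1 siRNA. Within a lane, the LKB1 library was the higher in U87 on both, by 2.32 (lane 2) and 1.52 (lane 5) on the log2 scale, a mean of 1.92 with an SE of 1.33 without the lane term and 0.55 with it. In T98 the pairs went opposite ways, by 1.89 and -0.88, at readings of 2.63 to 30.3.

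IL1A encodes interleukin-1 alpha, which is active without cleavage, and lies beside IL1B. It read 333 and 1904 in U87 control cells and 323 and 1934 with LKB1 siRNA, so the lane pairs were nearly equal. Its log2 differences there were -0.04 (lane 2) and 0.02 (lane 5). Lane 5 was the higher lane, as for IL1B, at 5.72 times lane 2 among controls. In T98, IL1A read 26.5 and 6.54 with control siRNA and 14.6 and 4.56 with LKB1 siRNA, the groups overlapping. IL1A and IL1B were thus both high in U87 and high on lane 5, and only IL1B was higher with LKB1 siRNA within both lanes. The difference between the 2 genes was not tested.

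IL36B encodes interleukin-36 beta, an agonist known mainly from epithelia, and was among the most abundant members in U87. It read 7881 and 7333 with control siRNA and 10044 and 8033 with LKB1 siRNA in U87. The LKB1 libraries were the higher, by 0.24 on the log2 scale (SE 1.07 without the lane term, 0.20 with it). The lane 5 value was 0.93 times the lane 2 value among controls and 0.80 times with LKB1 siRNA, gaps of the same order as the siRNA difference. In T98 it was represented by 5 reads (lane 2) and 0 reads (lane 4) with control siRNA and by 12 and 1 with LKB1 siRNA, all of the higher values on lane 2.

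IL33 encodes interleukin-33, a nuclear cytokine released from damaged cells and the ligand of IL1RL1. It read 371 (lane 2) and 50.4 (lane 5) in U87 control cells and 474 and 225 with LKB1 siRNA, so the groups overlapped, and here lane 2 was the higher lane. The log2 differences in U87 were 0.35 on lane 2 and 2.14 on lane 5, and the mean of 1.24 (SE 1.00 without the lane term, 0.60 with it) rested mainly on the low lane 5 control: without that library it was -0.18. T98 had 0 or 1 read of IL33 per library, which allows no fold.

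IL18 encodes interleukin-18, a cytokine that, like interleukin-1 beta, is cleaved by caspase-1. It was the one ligand higher in T98, at 59.6 (lane 2) and 28.4 (lane 4) with control siRNA and 86.0 and 13.7 with LKB1 siRNA. The T98 LKB1 libraries lay on both sides of the controls, and lane 2 was the higher lane in each group. In U87 it read 6.36, 8.60, 5.15 and 2.46 in the same order, from 3 to 9 reads per library. The U87 groups did not overlap, but the log2 difference of -0.87 (SE 0.91 and 0.50) rests on those few reads.

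Like IL1A, IL1B, IL36B and IL33, and unlike IL18, the antagonists were expressed in U87 and were low or near the detection limit in T98. IL1RN, which encodes the interleukin-1 receptor antagonist, read 296 and 439 in U87 control cells and 1368 and 1442 with LKB1 siRNA, in the order lane 2 and lane 5. The groups did not overlap, and the gap between them exceeded the spread within either. IL36B, IL18 and IL1RAP did not overlap in U87 either, and the share of all genes without overlap was not counted. The mean went from 367 (SD 101, n = 2) to 1405 (SD 52.2, n = 2), with log2 differences of 2.21 (lane 2) and 1.71 (lane 5), a mean of 1.96 and an SE of 0.54 without the lane term and 0.36 with it. T98 held 1 read of IL1RN in 1 control library and 0 in the other 3.

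IL36RN encodes the antagonist of the interleukin-36 receptor. It read 8774 and 6297 in U87 control cells and 11204 and 7412 with LKB1 siRNA, where the groups overlapped and lane 2 was the higher in each. The log2 differences were 0.35 and 0.24, and the mean of 0.29 had an SE of 1.00 without the lane term and 0.24 with it. In T98, 7 and 12 reads were on lane 2 and 1 and 1 on lane 4, a pattern close to that of IL36B.

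IL1RAP, the accessory chain shared by the receptors of interleukin-1, interleukin-33 and interleukin-36, was the one member lower with LKB1 siRNA in both lines and on every lane. In T98 it read 2695 (lane 2) and 1992 (lane 4) with control siRNA and 914 and 968 with LKB1 siRNA. In U87 it read 2705 (lane 2) and 2886 (lane 5) against 1339 and 1085. The groups did not overlap in either line, and all 4 control libraries lay above all 4 LKB1 libraries. How many of all genes tested showed such gaps with 2 libraries per group was not counted. The mean went from 2343 (SD 497, n = 2) to 941 (SD 38.3, n = 2) in T98 and from 2795 (SD 128, n = 2) to 1212 (SD 179, n = 2) in U87. The log2 difference was -1.30 in T98 (lane 2 -1.56, lane 4 -1.04) and -1.21 in U87 (lane 2 -1.01, lane 5 -1.41), each with an SE of 0.21 without the lane term and 0.17 with it. The effect in T98 minus that in U87 was -0.09 (SE 0.30 without the lane term), less than the spread between libraries.

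IL1R1, the signalling receptor of interleukin-1, varied by lane in opposite directions in the 2 lines and showed no gap between siRNAs. It read 1778 (lane 2) and 3547 (lane 4) with control siRNA and 1254 and 3626 with LKB1 siRNA in T98. In U87 it read 4271 (lane 2) and 2689 (lane 5) against 5756 and 2506. The log2 differences of -0.24 in T98 and 0.16 in U87 were under the SE of 0.61 without the lane term, and lane pairs disagreed in sign in each line. IL1RL1, the interleukin-33 receptor, had 0 reads in every T98 library and 9 to 45 reads in U87, where it read 9.58 and 22.02 with control siRNA and 12.6 and 38.5 with LKB1 siRNA.

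**Figure D2:**
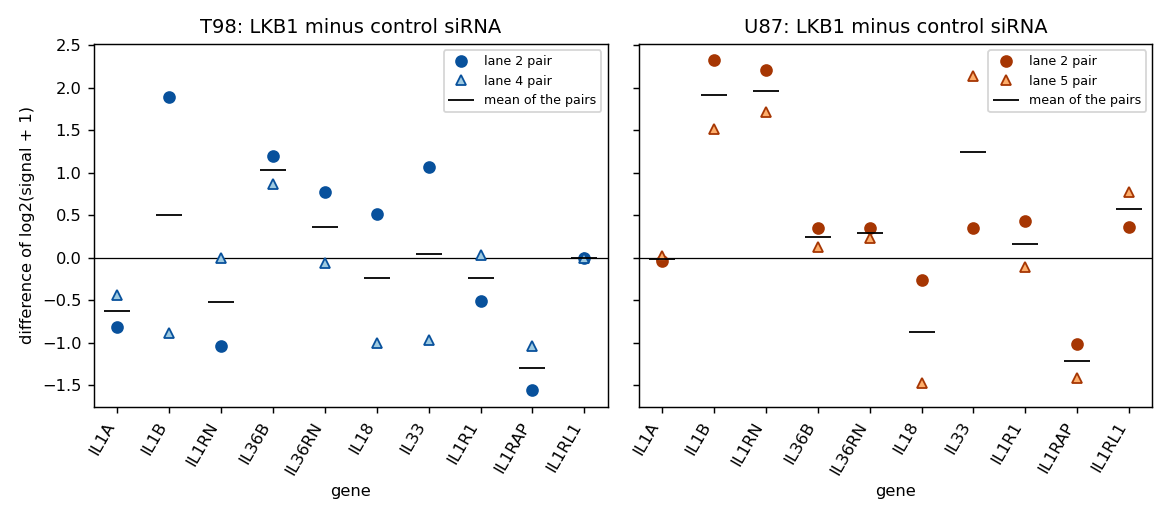
Difference of log2(signal + 1), LKB1 minus control siRNA, for each member within lane 2 (circles) and within the other lane (triangles), with the mean of the pairs as a dash. IL1RAP lies between -1.56 and -1.01 in all 4 pairs, and IL1RN and IL1B lie above 1.5 in both U87 pairs, while the pairs of IL1A, IL1B and IL33 in T98, at low readings, scatter from -0.97 to 1.89.

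The background of calls over all 14282 genes tested sets the frame for these members. Without the lane term, 0.028% of genes were called in T98 and 0.056% in U87 at an adjusted p under 0.05, and no member was among them (limma, with 1502 and 1268 genes at an unadjusted p under 0.05). With it, 8.48% of genes were called higher and 7.33% lower in T98, among them IL36B and IL1RAP. IL36B reached the filter only in U87, its T98 reads were 5 and 0 with control siRNA and 12 and 1 with LKB1 siRNA, and both calls were absent without either lane 2 library of T98 or any 1 U87 library. In U87, 5.29% were called higher, with IL1RN, and 5.91% lower, with IL1RAP. For the effect in T98 minus that in U87, 0.0% were called without the lane term (367 genes at an unadjusted p under 0.05) and 0.476% with it, and no member was called. Between control T98 and control U87, 18.3% of genes were called higher in T98, with no member, and 19.5% lower, with 7 members: IL1A, IL1B, IL1RN, IL36B, IL36RN, IL33 and IL1RL1. All of these 7 except IL1A reached the filter only in U87, so they were tested only because U87 was high. IL18 reached it only in T98. The members were chosen on these contrasts, so nothing is read from the counts.

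On recovered reads, scaled by library totals, the control libraries of U87 held 72.4 times as much IL1A as those of T98, 1312 times as much IL1B, 3040 times as much IL36B and 1870 times as much IL36RN. The T98 controls held only 32, 13, 5 and 8 reads of these 4 genes, in that order, and no interval was computed for them. All 5 IL36B reads and 7 of the 8 IL36RN reads were on lane 2, which also carried U87 libraries. With 1 read in T98, the ratio was 743 for IL1RN (95% counting interval 133 to 29374) and 406 for IL33 (72.5 to 16094). IL1RL1, with 0 reads in T98, was at least 10.7-fold higher in U87, taking 3 reads over the group as the floor. IL18 stood at 0.175 times, and IL1R1 and IL1RAP at 1.27 and 1.21 times. Intervals and floors cover counting error only. The size of these ratios depended on the library: on the log2 scale, T98 minus U87, IL1A ran from -7.05 to -4.54 and IL1B from -10.94 to -7.74 as single libraries were left out. IL36B ran from -12.89 to -10.25 and IL36RN from -11.94 to -9.79. In the fit with a lane term, IL1A was at -3.68 and IL1B at -7.08. Each of the 6 ligand and antagonist genes low in T98 kept its direction.

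Per kilobase of transcript, the scale on which genes can be compared, the mean levels in U87 control cells ran from IL1B at 5440 through IL36B at 4357 and IL36RN at 2685 to IL1R1 at 708, IL1RAP at 396, IL1A at 381, IL1RN at 173, IL33 at 77.7, IL18 at 6.49 and IL1RL1 at 4.57. IL1B, whose libraries read 1068 and 9812 per kilobase, overlapped its neighbours IL36B and IL36RN, and IL1A (113 and 649) overlapped IL1RAP, IL1R1, IL1RN and IL33 (18.6 and 137). IL18 and IL1RL1 also overlapped. In T98 control cells the order was IL1R1 at 541, IL1RAP at 332, IL18 at 38.1, IL1A at 5.63 and IL1B at 4.36 per kilobase, with the other 5 below these. IL1R1 and IL1RAP thus led the family in T98, and 3 ligand or antagonist genes stood above them in U87.

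The ligand genes lie together on chromosome 2, where 9 family genes of the table span 360.1 kb (hg19, 113531492 to 113891593), and the comparison along this cluster shows which of its genes were expressed. IL1A (113531492 to 113542971) and IL1B (113587337 to 113594356) lie on the minus strand, IL36B (113779668 to 113810440) on the minus strand, and IL36RN (113816215 to 113822320) and IL1RN (113875470 to 113891593) on the plus strand. IL36B and IL36RN are 5.774 kb apart on opposite strands, and the library kit keeps no strand, so reads from opposite strands could not be separated. The other 4 genes of the cluster, IL37, IL36G, IL36A and IL1F10, stayed at or under 25.7 in every library. The 5 members of the cluster read at least 296 in every U87 library, and 3 of the other genes lie between IL1B and IL36B.

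**Figure D3:**
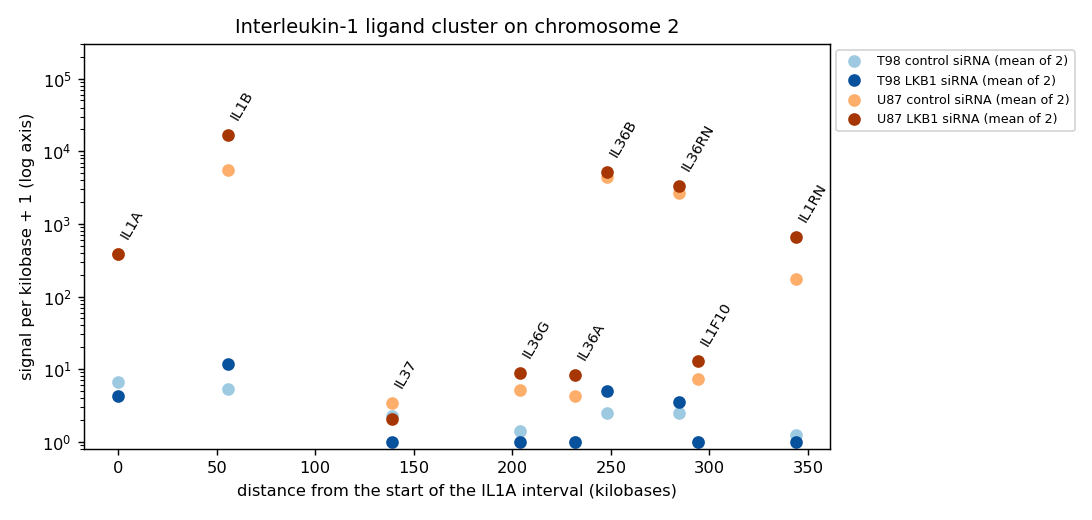
Signal per kilobase plus 1 (log axis, mean of 2 libraries per group) of the 9 family genes of the chromosome 2 cluster against distance from the start of the IL1A interval in kilobases. Before 1 is added, IL1A, IL1B, IL36B, IL36RN and IL1RN are at 173 or more in both U87 groups, whereas IL37, IL36G, IL36A and IL1F10 are at 12.1 or less in all groups.

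Of the 12 family genes that are not members, 6 passed the filter on low values. None was called for the siRNA in either line, with or without the lane term, and the limma count at an unadjusted p under 0.05 was 0 in each line without it and 2 in T98 with it. Between control lines, SIGIRR, an inhibitory receptor of the family, was lower in T98 (2.27 and 22.9 against 241 and 170 in U87, log2 difference -4.52, SE 0.93, limma adjusted p = 0.00825), as was IL1F10 (0 in T98 against 4.30 and 13.4). IL1RAPL1, a family receptor known from neurons, was higher in T98 (21.3 and 19.0 against 1.06 and 0.95, 3.40). IL1F10 reached the filter only in U87 and IL1RAPL1 only in T98, so no p-value is given for either. IL1RL2, the interleukin-36 receptor chain, had no value above 1.93 in any library, and IL18R1 and IL18RAP, the interleukin-18 receptor chains, stayed at or under 44.0 and 2.61. IL1R2, the decoy receptor, reached 47.5 at most, and IL18BP, which binds interleukin-18, read 83.7 to 296.

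Caspase-1 cleaves interleukin-1 beta and interleukin-18, and the genes of caspase-1 and its adaptor were higher in T98, the line in which IL1B was low. Of 16 tested genes of processing and release, 5 were higher and 4 lower in T98 controls than in U87 controls, beside 18.3% and 19.5% of all genes. NLRC4, among the 4 lower, reached the filter only in U87. CASP1, which encodes caspase-1, read 2227 and 5226 in T98 against 448 and 352 in U87 (log2 difference 3.10, SE 0.51, limma adjusted p = 0.00331). PYCARD, the adaptor ASC that joins caspase-1 to its sensors, read 694 and 1110 against 23.3 and 27.7 (5.06, SE 0.37, adjusted p = 0.000106). CASP4 was also higher (1.78, adjusted p = 0.00233), while the sensor NLRP3 (-2.29, adjusted p = 0.0315), CASP8 (-0.93, adjusted p = 0.00968) and the gasdermin gene DFNA5 (-1.99, adjusted p = 0.00114) were lower. In U87 controls, where IL1B read 1607 and 14767, PYCARD reached 27.7 at most. Cleavage and release of the proteins were not measured.

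**Figure D4:**
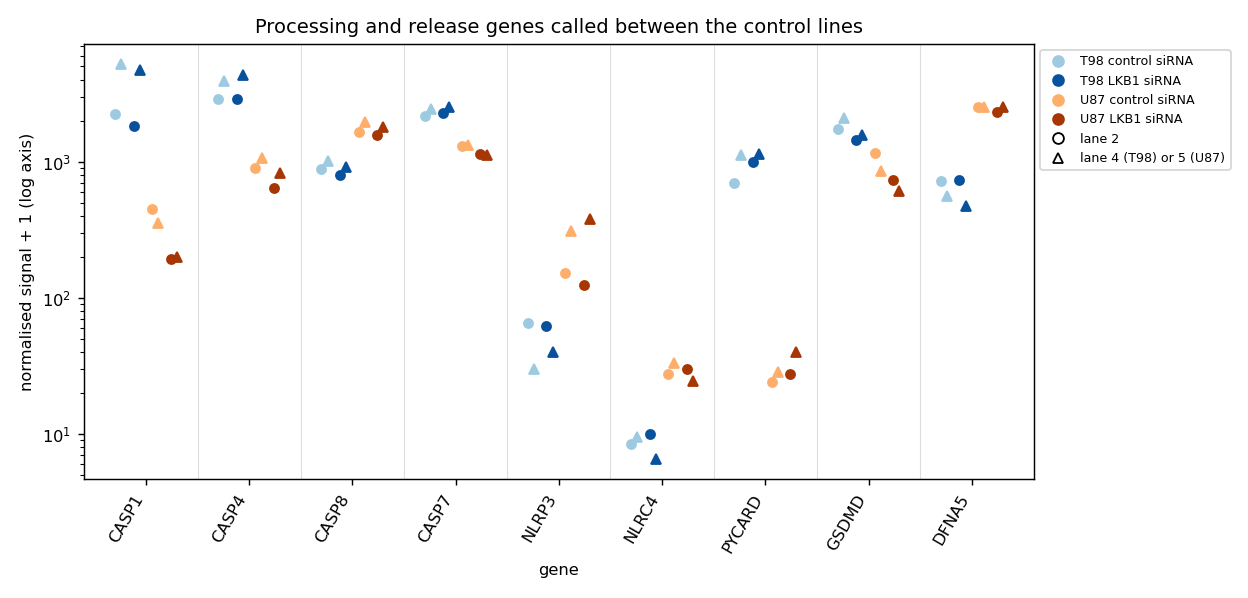
Normalised signal plus 1 (log axis) of the 9 genes of cytokine processing and release called between the control lines, in each library, coloured and shaped as in the plot of members by library. PYCARD lies between 694 and 1129 in T98 and between 23.3 and 39.1 in U87, and CASP1 between 1832 and 5226 in T98 and between 192 and 448 in U87.

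With LKB1 siRNA, no gene of this group passed without the lane term. With it, CASP1 fell in U87 (448 and 352 to 192 and 198, -1.02, adjusted p = 0.00671), GSDMD fell in U87 (-0.56, adjusted p = 0.0353) and S100A13, which takes part in the release of interleukin-1 alpha, rose in T98 (0.94, adjusted p = 0.0237).

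Genes known to be induced by interleukin-1 were mostly lower in T98. A link between their levels and those of IL1A and IL1B was not tested. Of 23 tested response genes, 17 were lower and 3 higher in T98 controls, beside 19.5% and 18.3% of all genes. Their median log2 difference was -2.59 against -0.01 over all genes tested. The list was chosen with earlier results of these data known. The lower ones included IER3 (-3.25, limma adjusted p = 9.4e-05), IL11 (-5.37, adjusted p = 0.000182) and IL8, the chemokine now called CXCL8 (454 and 241 against 6246 and 22241, -5.15, adjusted p = 0.00156). CXCL1 (-7.58) and the colony-stimulating factor gene CSF3 (-11.52) were also among them. CXCL1, CXCL2, CCL20 and CSF3, counted among the 17, reached the filter only in U87. The adhesion molecule gene VCAM1 (1099 and 2857 against 4.22 and 3.81, 8.47), CCL2 (1.90, adjusted p = 0.00629) and BIRC3 (2.15, adjusted p = 0.0415) were higher in T98. VCAM1 reached the filter only in T98. Over the 6 pathway lists together, 42 of 83 tested genes were called between the lines (12 higher, 30 lower in T98), which is 50.6% against 37.7% of all genes.

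**Figure D5:**
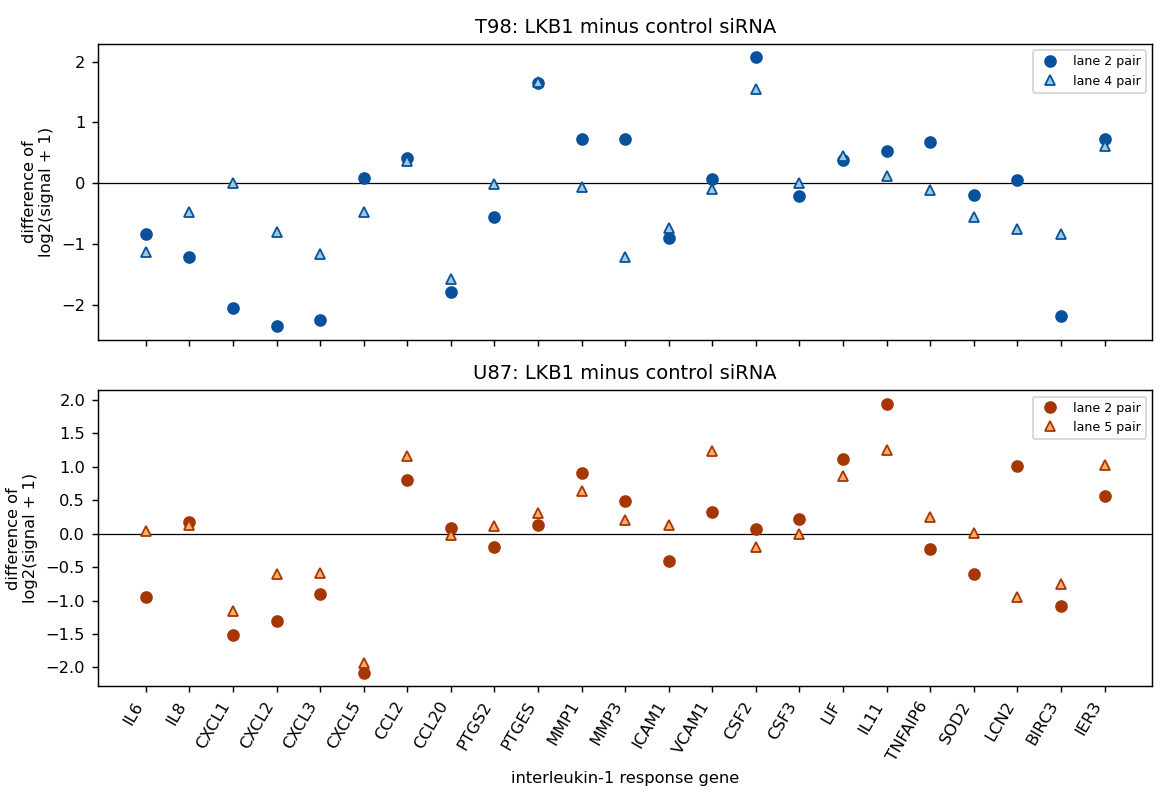
Difference of log2(signal + 1), LKB1 minus control siRNA, of the 23 tested interleukin-1 response genes within lane 2 (circles) and within the other lane (triangles), in T98 (upper) and U87 (lower). PTGES and CSF2 lie above 1.5 in both T98 pairs, CXCL5 lies below -1.9 in both U87 pairs, and IL11 lies above 1.2 in both U87 pairs.

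Under LKB1 siRNA none of the 83 pathway genes was called in either line without the lane term, with 13 (T98) and 6 (U87) at an unadjusted p under 0.05. With the lane term, 22 passed in T98 (7 higher, 15 lower), 26.5% against 15.8% of all genes, and 10 in U87 (5 higher, 5 lower), 12.0% against 11.2%. In T98, 5 of 11 NF-kB factors and inhibitors fell, among them the feedback inhibitor TNFAIP3 (692 and 386 to 299.6 and 226, -0.99, adjusted p = 0.0109), the atypical inhibitor family member NFKBIZ (-0.88, adjusted p = 0.0135) and the subunit RELB (-0.61, adjusted p = 0.0325). None of these 11 passed in U87, and none was called for the difference between the lines. Over all genes, 7.33% were called lower and 8.48% higher in T98 in this fit. Of the T98 response genes, 7 fell, including CXCL3 (138 and 42.6 to 28.4 and 18.6, -1.70, adjusted p = 0.0141) and BIRC3 (-1.50, adjusted p = 0.0167). CCL20 (6.38 and 4.73 to 1.15 and 0.922) and CXCL2 (15.9 and 5.63 to 2.31 and 2.79) are counted among the 7 at low readings, and both reached the filter only in U87. The other 3 called response genes rose, PTGES (20.5 and 88.5 to 66.6 and 282, 1.66, adjusted p = 0.00215), CSF2 (1.81, adjusted p = 0.00919) and IER3 (0.67, adjusted p = 0.0235). Receptor-proximal TAB3, a subunit of the TAK1 complex, fell (-1.63, adjusted p = 0.0134), and the ubiquitin ligase PELI1 rose (1.17, adjusted p = 0.0145).

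In U87 the cytokines LIF (3721 and 10976 to 8038 and 19867, 0.98, adjusted p = 0.00396) and IL11 (321 and 529 to 1235 and 1257, 1.59, adjusted p = 0.0107) rose together with CCL2 (0.98, adjusted p = 0.00897), IER3 and MMP1, while CXCL5 fell (118 and 283 to 27.3 and 73.3, -2.01, adjusted p = 0.00531). Among regulators of interleukin-1 mRNA, CEBPD, a C/EBP factor, fell in U87 (-1.17, adjusted p = 0.0198), the mRNA-decay nuclease gene ZC3H12A fell in T98 (-0.64, adjusted p = 0.0227), and HNRNPD, which binds AU-rich elements, rose in T98 (0.80, adjusted p = 0.01). These lane-term calls all came from 2 residual degrees of freedom, and leaving out any 1 U87 library left 0 calls over all genes in both lines. Without either lane 2 library of T98, 200 or 208 genes were called in T98, and neither IL1RAP nor IL36B was among them.

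Over the 8 libraries, the genes whose log2 values were most like those of IL1B were IGFBP1 (r = 0.9976), SCG5 (r = 0.9967), SPOCK1 (r = 0.9947), IQCG (r = 0.9941) and PORCN (r = 0.993). IGFBP1, an insulin-like growth factor binding protein, read 193 and 1422 in U87 control cells and 879 and 5859 with LKB1 siRNA, against at most 4.42 in T98. This is the order of IL1B itself across the 4 U87 libraries. The 8 points share 2 lines and 3 lanes, and 609 of the genes tested reached an r of at least 0.95.

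Markers of other cells were read beside these genes, since macrophages, neutrophils and epithelia are major sources of the family. Of 8 macrophage and microglia markers, PTPRC, AIF1, TYROBP and CX3CR1 stayed under 10 in every library. CSF1R, the receptor that macrophages need for growth, read 339 and 813 in U87 control cells against 7.53 and 15.2 in T98. CD14 ranged from 9.39 to 26.1 and ITGAM from 26.2 to 155 over the 8 libraries. The summed signal of the 8 macrophage markers was 833 to 1315 in T98 control, 635 to 756 in T98 LKB1, 12404 to 20354 in U87 control and 13099 to 23591 in U87 LKB1, carried mainly by CD68, a lysosomal protein. Of 7 keratinocyte and epithelial markers, 1 reached 10 in both T98 control libraries and 3 in both of U87, and KRT14 stayed under 10 everywhere. Of the 6 neutrophil and mast cell markers, KIT read 116 and 852 in T98 control and 143 and 788 in T98 LKB1, the other 5 stayed under 10 in every library, and none reached 10 in both U87 control libraries. All 4 endothelial markers reached 10 in both U87 control libraries, against 1 in T98, with KDR at 149.9 and 162 against 1.07 and 0.944. The part of other cells in these values was not tested.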

How the data were processed

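The 8 libraries were made with TruSeq V2 kits, per the labels' protocols. The submitters' processing notes name TopHat2 2.0.8b, edgeR (used by the authors) and the builds hg19 and GRCh37; no source used here names the read counter. The authors deposited 1 normalised signal per transcript and library. This signal of the authors has the form of edgeR pseudo-counts, and inverting that form gave whole numbers of reads, to within 0.05 read, for 100.0% of values. Recovered reads serve as depth and in ratios, in no test. A symbol with several rows kept the one with the highest mean.

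The test was limma-trend (in limma 3.58.1 under R 4.3.3), run on log2(value + 1) of the 14282 genes reaching 10 in at least 2 libraries, with 4 group means, 4 residual degrees of freedom, two-sided, Benjamini-Hochberg adjusted, threshold 0.05. A fold on this scale understates changes of low genes. The lane-term fit had 2 residual degrees of freedom; the column names give the lanes. The lane difference, gene by gene, had a correlation of 0.72 between the siRNA groups of T98 and of 0.81 between those of U87, against 0.12 to 0.18 across lines; replicate numbers follow sample order and pair nothing. In that fit the comparison of the lines is set at lane 2. The lane effect of each line is fitted over both siRNA groups, so the result is not the direct difference of the lane 2 controls.

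The members, gene lists and tests were chosen with earlier results of these data known. Named were the members, STK11, the other family genes, up to 3 genes per list, comparison and direction with the smallest adjusted p past the threshold in either fit, the chromosome 2 cluster and the 5 genes most like IL1B; other genes named were chosen after their values were seen. A gene that met the rule is not reported here. Coordinates of the table are hg19; sequences are GRCh38, and no coordinate was converted. Alternatives were the lane term, other pseudocounts, other filters and leaving out each library.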

Additional observations from a re-analysis of the deposited data

Results flagged for a closer look

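PTGES encodes the prostaglandin E synthase induced by interleukin-1. It was called for a different LKB1 siRNA effect in the 2 lines in the fit with a lane term, which had 2 residual degrees of freedom. The log2 effect in T98 minus that in U87 was 1.44 (limma adjusted p = 0.0439), with effects of 1.66 in T98 and 0.22 in U87. Without the lane term the difference had an SE of 1.14 and did not pass. The T98 control readings were low, at 20.5 (lane 2) and 88.5 (lane 4).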

How the results depend on the processing

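Without the lane term, 4 genes were called in T98 (4 higher), 8 in U87, 5386 between the lines and 0 for the difference between the effects. The replicate block by lane moved these to 2258, 1599, 9037 and 68, and the pathway-list counts from 0, 0 and 0 to 22 (T98), 10 (U87) and 1 (difference). Testing all genes, with no filter, gave 13, 30 and 23 calls (T98, U87, difference), and a minimum value of 50 gave 14 in U87. Leaving out each library gave 0 to 2 calls in T98, 0 in U87, 3156 to 5369 between the lines and 0 for the difference, and 0, 0, 29 to 43 and 0 pathway-list genes. The lane-term counts with 1 library left out, chosen after seeing the data, ran from 0 to 3466 in T98 and from 0 to 2432 in U87. IL1RAP and IL36B lost their lane-term calls in T98 without either lane 2 library of T98, and no call in either line was left without any 1 U87 library; IL1B joined the U87 calls without any 1 T98 library. Of the members' differences under the alternatives, 481 stayed within 1 SD of the reported value and 35 moved further; of those of named pathway genes, 757 kept their side of the threshold, 41 passed newly, 57 no longer passed and no called value reversed. The siRNA differences of IL1RAP (both lines) and of IL1B, IL1RN, IL36B and IL18 (U87) kept their sign under every alternative run. Those of IL1A, IL36RN, IL33, IL1R1 and IL1RL1 in U87 changed sign when 1 U87 library was left out. STK11 in U87 no longer passed under 9 alternatives. edgeR and DESeq2, planned on recovered reads, were not run, because a separate check, which takes values as fixed multiples of 1 read, did not accept 2 of the 8 libraries. Low reads limit IL1A, IL1B, IL1RN, IL1RL1, IL33, IL36B and IL36RN in T98 and IL18 in U87.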

Other observations

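IL36B and IL36RN were among 10 genes with at least 1000 reads in every U87 library and at most 1 read in both T98 lane 4 libraries, a choice that itself fixes the low lane 4 values. Summed over the 10 genes, the T98 libraries on lane 2, which also carried U87 libraries, held 38 (control) and 64 (LKB1) reads. The T98 libraries on lane 4 held 6 and 3 reads, and the U87 libraries on lane 2 held 39064 and 41547. Where the T98 lane 2 reads came from was not tested.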
